A study of Mus musculus with 146 samples.

Results

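The solute carrier genes described here are those whose symbol is Slc followed by a family number and a member, and whose mean level reached 5 TPM (transcripts per 1000000) over the germ cells with at least 1 TPM of Ddx4, which encodes a germ cell RNA helicase. Of 363 Slc symbols among 52605 gene symbols, 3 (Slc2a1, Slc2a3 and Slc16a1) were set aside by the rule and 234 stayed below the limit, 46 of them at under 1 TPM in every cell. The remaining genes, called members, fall into 29 SLC25 mitochondrial carriers, 19 carriers of the endoplasmic reticulum and Golgi apparatus, 19 metal carriers, 18 ion carriers, 16 amino acid carriers, 6 carriers of sugars and monocarboxylates and 19 of nucleosides, vitamins, choline, fatty acids and organic ions. These classes follow the SLC family number alone. A class name, full or shortened, therefore need not hold for the substrate or the location of each of its members. The data were 146 libraries of single germ cells from 5 ovaries of newborn pups of 1 litter (strain C57BL/6J, age D0.5, no treatment or engineered allele), picked under the microscope after trypsin digestion and sequenced with Smart-seq2, a full-length method for polyadenylated RNA. All but 1 had Ddx4, at 7.49 TPM or more with a median of 189 TPM, and these cells are used throughout. Because the members were chosen by their level, that level is given as a description. TPM is scaled by transcript length, so levels of different genes can be set side by side.

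Solute carriers are membrane proteins that move ions, nutrients, metals, nucleotides and metabolites across the cell surface or across the membranes of organelles. SLC25 carriers sit mostly in the inner mitochondrial membrane. Most SLC30 proteins carry zinc out of the cytosol and SLC39 proteins carry it in. Many SLC35 carriers, but not all, bring nucleotide sugars into the endoplasmic reticulum and the Golgi apparatus. Around birth the germ cells of the mouse ovary leave their cysts and become enclosed singly in primordial follicles, and the oocytes of these follicles take up amino acids, ions and energy substrates through such carriers.

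Depth lay between 4074810 and 26855273 gene-assigned reads in a cell, with a median of 9498860. The cells were placed in 3 clusters by 20 published feature genes of meiosis and oocyte development, none of which is a solute carrier: 19 cells in cluster 1, 93 in cluster 2 and 33 in cluster 3, numbered from the end where the meiotic gene Sycp2 was high. The median depth was 9615238 reads in cluster 1, 8965502 in cluster 2 and 10711092 in cluster 3. The labels tie no cell to an animal, so all cells are 1 sample: no test was made between clusters, SD is the spread between cells, and differences are given as log2 ratios of mean TPM + 1. The 7 germ cell markers were present in every cluster, with summed medians of 3833, 6449 and 5306 TPM, whereas the 12 pregranulosa markers summed to medians of 0.511, 0.658 and 1.09 TPM and Foxl2 and Nr5a1 were near 0. The study had screened the cDNA by PCR for Ddx4 and Foxl2 and removed those with Foxl2 before sequencing, so the levels of these genes are no independent check. Stroma markers summed to medians of 13.6, 42.2 and 17.7 TPM (Dlk1 leading over all cells), and blood and endothelial markers to 67.5, 71.2 and 30.6 TPM (mostly globin). Globin reached 100 TPM in 56 libraries (7, 39 and 10 by cluster), and in 1 cell of cluster 1 the blood and endothelial list summed to 324516 TPM. Leaving these libraries out changed the calls of some members, and for several of these the value without them is given. In 7 pairs of libraries, all in cluster 2, the log2(TPM + 1) levels of 12561 coding genes correlated at 0.989 to 0.996, whereas no other pair exceeded 0.823; the labels do not say whether such a pair comes from 1 cell. If each does, cluster 2 holds 86 distinct cells, and every cell count and n given for cluster 2 or for all cells counts libraries. With each pair averaged as 1 cell, the log2 ratios of the members moved by at most 0.25, the calls of 3 members changed between clusters 2 and 1 and those of 5 between clusters 3 and 2, and Slc38a4 fell below the limit (4.68 TPM); clusters 1 and 3 hold none of these pairs.

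The members differed widely in level. Only 4 had a mean of 100 TPM or more, 12 lay between 50 and 100 TPM, 72 between 10 and 50 TPM, and 38 between 5 and 10 TPM, and the 10 highest held 41.6% of the summed mean. First was Slc25a31, a germ cell adenine nucleotide translocase, at 407 TPM, followed by the mitochondrial phosphate carrier Slc25a3 at 335 TPM. The mitochondrial zinc transporter Slc30a9 had 221 TPM and the mitochondrial glutathione carrier Slc25a39 had 115.5 TPM. The other 6 were the peroxisomal carrier Slc25a17 (99.8 TPM), the translocase Slc25a4 (75.9 TPM), the oxoglutarate carrier Slc25a11 (72.1 TPM), the phosphate importer Slc20a1 (69.3 TPM), the endoplasmic reticulum carrier Slc35b1 (68.1 TPM) and the pyrimidine nucleotide carrier Slc25a36 (64.8 TPM). Thus 7 of the 10 highest members were SLC25 genes.

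Breadth of detection varied as well. At least 1 TPM was present in 90% or more of the cells for 10 members (Slc25a31, Slc25a3, Slc30a9, Slc25a39, Slc25a17, Slc25a4, Slc25a36, Slc25a51, Slc38a6 and Slc39a1), but in fewer than 50% of the cells for 45 members. The median over cells was at least 5 TPM for 59 members and 0 for 19. Slc29a1, the equilibrative nucleoside transporter, reached 1 TPM in 13 cells, the choline transporter-like gene Slc44a3 in 17, the heme transporter gene Slc48a1 in 23, the glucose cotransporter Slc5a2 in 31 and the aspartate-glutamate carrier Slc25a12 in 35. A contrasting case was the zinc importer Slc39a1, which was modest in mean level (16.9 TPM) and reached 1 TPM in 97.2% of the cells.

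**Figure D1:**
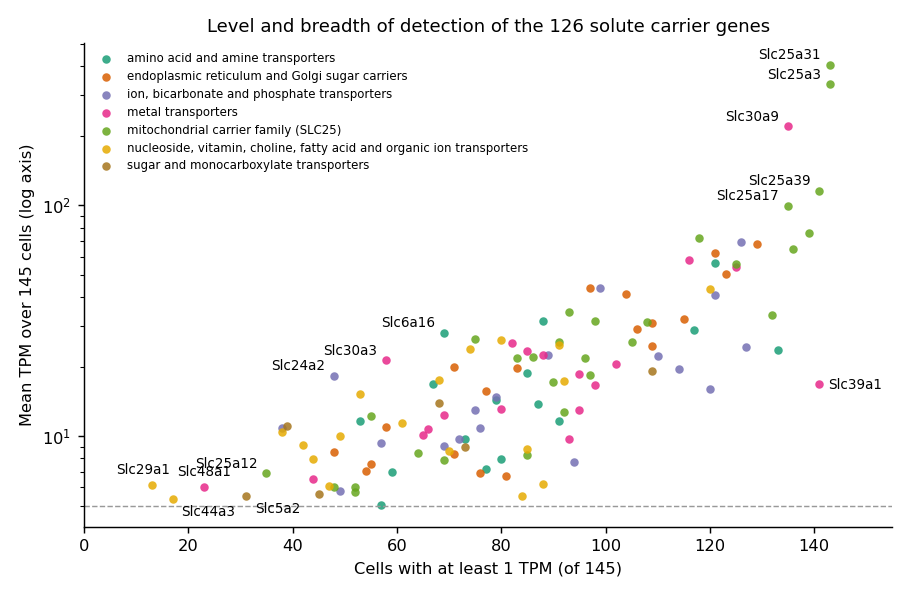
Mean TPM over all cells with Ddx4 (log axis) against the number of cells with at least 1 TPM, 1 point for each member, coloured by transporter class. The dashed line is the limit of 5 TPM; Slc25a31 stands highest at 407 TPM, and Slc29a1 lies at the left with 13 cells.

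The number of members detected differed between cells. The number at 1 TPM or more had a median of 71 in clusters 1 and 2 and 92 in cluster 3, and the lowest cells had 42, 19 and 43. After 1000000 reads were drawn from every cell the medians with a read were 78, 77 and 95. Over all 8940 coding genes with a mean of at least 5 TPM the same count also stood higher in cluster 3 (median 7160 genes) than in clusters 1 and 2 (6522 and 6327). As a share of the set, members at 1 TPM went from 56.3% in clusters 1 and 2 to 73% in cluster 3, and the 8940 genes from 73% and 70.8% to 80.1%. While more members were detected, they held less of the nuclear transcriptome: 0.457% ± 0.0689 of TPM (SD, n = 19 cells) in cluster 1, 0.428% ± 0.0869 (n = 93) in cluster 2 and 0.351% ± 0.0982 (n = 33) in cluster 3. The ranges over cells overlapped (0.257 to 0.559%, 0.244 to 0.696% and 0.173 to 0.584%). Between clusters 1 and 3 the summed TPM averaged 4156 and 3045 for all members and 2099 and 1278 for the SLC25 members. The sums of the ion (298 and 321 TPM) and sugar and monocarboxylate carriers (51.2 and 80.7 TPM) were higher in cluster 3, and those of the remaining classes were lower.

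Which carriers were higher or lower from cluster to cluster was examined with a limit of 1.5-fold. Cluster 2 had 37 members higher and 22 lower than cluster 1, and among the 8940 coding genes 22.5% were higher and 18.6% lower by that limit. Cluster 3 had 22 higher and 47 lower than cluster 2, beside 14% and 29.6% of the coding genes. This balance turned with means of log2(TPM + 1), to 39 higher and 22 lower beside 28% and 17.1% of the coding genes, and per spike-in TPM, to 60 and 11 beside 51.1% and 6.35%. Between cluster 3 and cluster 1, 35 members were higher and 41 lower, beside 25.3% and 36%. The balance of the other comparisons turned with means of log2(TPM + 1) as well, to 29 higher and 36 lower between clusters 2 and 1 and to 45 and 38 between clusters 3 and 1 (coding genes 19.2% and 30.6%, and 32.02% and 32.6%), and per spike-in TPM that between clusters 3 and 1 was 56 and 26 (44.9% and 16.7%). Between clusters 2 and 1, spike-in scaling put 18.1% of the coding genes higher and 26.4% lower. The members' median there was -0.16 on that scale. The median log2 ratio of the members was 0.06, -0.36 and -0.19 in these 3 comparisons and that of the coding genes 0.00, -0.22 and -0.21, so the members' medians lay close to those of the coding genes. TPM is relative to the other transcripts of a cell. Spike-ins took a median of 0.345%, 0.417% and 0.279% of the reads in clusters 1, 2 and 3, and with levels taken per spike-in TPM the median coding gene moved from -0.21 to 0.45 between clusters 3 and 1 and from -0.22 to 0.60 between clusters 3 and 2, and the directions given are those in TPM unless stated.

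Single members went far beyond that middle. Cluster 1 held the highest mean of 47 members, cluster 2 that of 39 and cluster 3 that of 40. These 3 counts are a description, given without the shares of the coding genes. In 10 members both steps were at least 1.5-fold upward (Slc24a3, Slc25a5, Slc30a3, Slc38a1, Slc4a8, Slc50a1, Slc5a2, Slc6a9, Slc7a11 and Slc7a2), and in 8 both were downward (Slc25a14, Slc25a31, Slc29a1, Slc39a6, Slc3a2, Slc5a10, Slc6a16 and Slc7a1). Another 10 were highest in cluster 2 by that limit on both sides, 5 were lowest there, and 28 stayed within 1.5-fold in all 3 comparisons. These are 7.94% of the members upward in both steps, 6.35% downward in both, 7.94% highest and 3.97% lowest in cluster 2, and 22.2% within 1.5-fold throughout, and the same shares of the coding genes were 6.03%, 7.55%, 4.57%, 2.15% and 27.4%. Without the globin libraries the upward genes lost Slc50a1 and the downward ones Slc39a6, Slc5a10 and Slc7a1. Leaving out the libraries with globin, 33 of the 35 members higher in cluster 3 than in cluster 1 and 35 of the 41 lower ones passed the limit again.

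**Figure D2:**
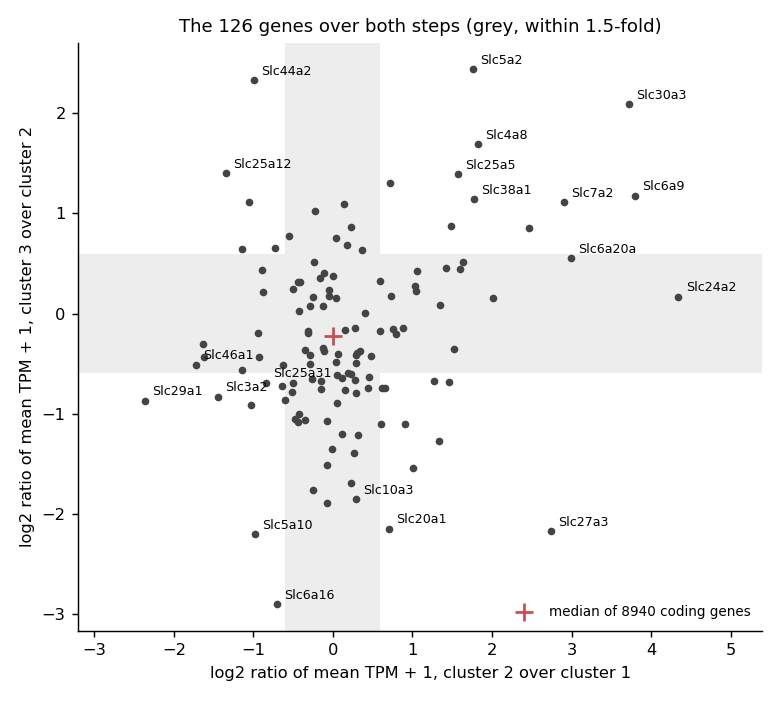
Log2 ratio of mean TPM + 1 for cluster 2 over cluster 1 (x axis) and cluster 3 over cluster 2 (y axis), 1 point per member; grey bands mark less than 1.5-fold and the cross marks the median of 8940 coding genes. Slc30a3, Slc6a9 and Slc24a2 lie far to the right, Slc6a16 lies lowest, and Slc27a3 lies to the right and low.

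The adenine nucleotide translocases exchange ADP for ATP across the inner mitochondrial membrane, and all 3 of those searched for were members. Slc25a31 (chr3:40708855-40726096, mm10, plus strand) encodes the form known from germ cells, Slc25a4 (chr8:46206797-46211284, minus strand) the form known from heart and muscle, and Slc25a5 (chrX:36795651-36798807, plus strand) the form of dividing cells. The upstream stretches of Slc25a31 and of Slc25a5 are shown because these genes moved in opposite directions between clusters; that of Slc6a16, an orphan member of the neurotransmitter transporter family, is shown because it was the member with the lowest ratio between clusters 3 and 1. They run from 250 to 21 bases before the RefSeq start (GRCm38.p6), 5′ to 3′, with matches on either strand in capitals. The motifs searched were CANNTG (the letters of the E-box that basic helix-loop-helix factors such as FIGLA bind), then TCCCGC (the letters of an E2F-type element) and then TAATTG (the letters that NOBOX binds).
Slc25a31 chr3:40708621-40708850, plus strand: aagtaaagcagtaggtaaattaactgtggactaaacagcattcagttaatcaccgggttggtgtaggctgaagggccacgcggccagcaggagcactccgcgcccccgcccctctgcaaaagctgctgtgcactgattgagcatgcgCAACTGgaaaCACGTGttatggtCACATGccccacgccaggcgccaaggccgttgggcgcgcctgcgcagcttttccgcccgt
Slc25a5 chrX:36795347-36795576, plus strand: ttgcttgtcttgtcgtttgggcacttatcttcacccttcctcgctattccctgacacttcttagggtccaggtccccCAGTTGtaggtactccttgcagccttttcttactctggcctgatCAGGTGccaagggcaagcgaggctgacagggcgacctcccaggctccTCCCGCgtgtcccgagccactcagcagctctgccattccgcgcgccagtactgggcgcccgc
Slc6a16 chr7:45240503-45240732, plus strand: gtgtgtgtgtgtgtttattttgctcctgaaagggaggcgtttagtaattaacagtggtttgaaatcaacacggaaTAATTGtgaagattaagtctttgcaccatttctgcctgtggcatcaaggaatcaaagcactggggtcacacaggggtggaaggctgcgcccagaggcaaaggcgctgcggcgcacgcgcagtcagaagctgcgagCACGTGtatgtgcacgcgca

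In its RefSeq window, which runs from 250 bases before to 50 after the start, Slc25a31 had 3 matches to CANNTG, the nearest of them 80 bases before the start, and 1 to TCCCGC, 21 bases after it, in the exonic stretch cagcgcccgcttTCCCGCcagggtaaagct (chr3:40708879-40708908, plus strand). Slc25a5 had 3 matches to CANNTG, of which the one 38 bases after the start is not shown, and 1 to TCCCGC, 82 bases before the start. Slc25a4 had 1 match to CANNTG and none to TCCCGC, and Slc6a16 had 1 match to CANNTG and 1 to TAATTG. Windows matched all but 25 of the members. Of the members' windows 37.3% held TCCCGC, beside 36.5% for the coding genes with a mean of at least 5 TPM and 20% of all 32851 windows. The shares for CANNTG were 71.8%, 62.6% and 72.3%, and those for TAATTG were 8.45%, 4.9% and 8%. The members' windows had a median GC content of 61.3%, as had those of the coding genes. These matches are descriptions of the letters, and no binding was measured.

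Slc25a31 dominated the translocases in nearly every cell. Its level was 716 ± 348 TPM (SD, n = 19 cells) in cluster 1, 400 ± 205 TPM (n = 93) in cluster 2 and 248 ± 156 TPM (n = 33) in cluster 3, and the lowest, median and highest cells were at 261, 605 and 1700 TPM, at 0, 367 and 1010 TPM and at 6.64, 209 and 636 TPM. All cells of cluster 1 lay above the median cell of cluster 3, although the clusters overlapped. Slc25a5 took the other direction, from 7.49 ± 9.7 TPM to 24.2 ± 34.1 and 65.3 ± 44 TPM, with lowest, median and highest cells of 0, 0.145 and 27.04 TPM, of 0, 10.3 and 167 TPM and of 0, 72.5 and 157 TPM. The highest cell of cluster 1 was below the median cell of cluster 3, and each cluster held cells at 0. Slc25a4 was at 96.9 ± 50.5, 79 ± 53.2 and 55.3 ± 36.6 TPM, with medians of 103.95, 70.7 and 54.2 TPM, above Slc25a5 in the means of clusters 1 and 2 and below it in cluster 3. Slc25a5 has processed copies in the mouse genome that can share its reads, and how the reads were divided was not tested.

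Between clusters 3 and 1 the log2 ratio was -1.53 for Slc25a31, -0.80 for Slc25a4 and 2.97 for Slc25a5. With spike-in scaling Slc25a5 (3.90) and Slc25a31 (-0.65) kept these signs and Slc25a4 came to 0.10, while Slc25a31 went from -0.69 to 0.29 between clusters 3 and 2. The share of each translocase in their sum within a cell is the same on either scale. Averaged over cells, Slc25a31 held 85.6%, 77.9% and 67.4% in clusters 1, 2 and 3, Slc25a4 held 13.5%, 17.6% and 15.6%, and Slc25a5 held 0.881%, 4.50% and 17.02%. Slc25a31 was the highest of the 3 in 140 cells (96.6%, exact 95% interval 92.1 to 98.9%, counting error only), which were all 19 of cluster 1, 90 of 93 in cluster 2 and 31 of 33 in cluster 3. Slc25a4 led in 4 cells and Slc25a5 in 1. Cells with much Slc25a31 were not those with little Slc25a5 within a cluster: Spearman's rho, as a description over cells that share depth and composition, was 0.54 in cluster 1 (n = 19), 0.26 in cluster 2 (n = 93) and 0.44 in cluster 3 (n = 33).

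**Figure D3:**
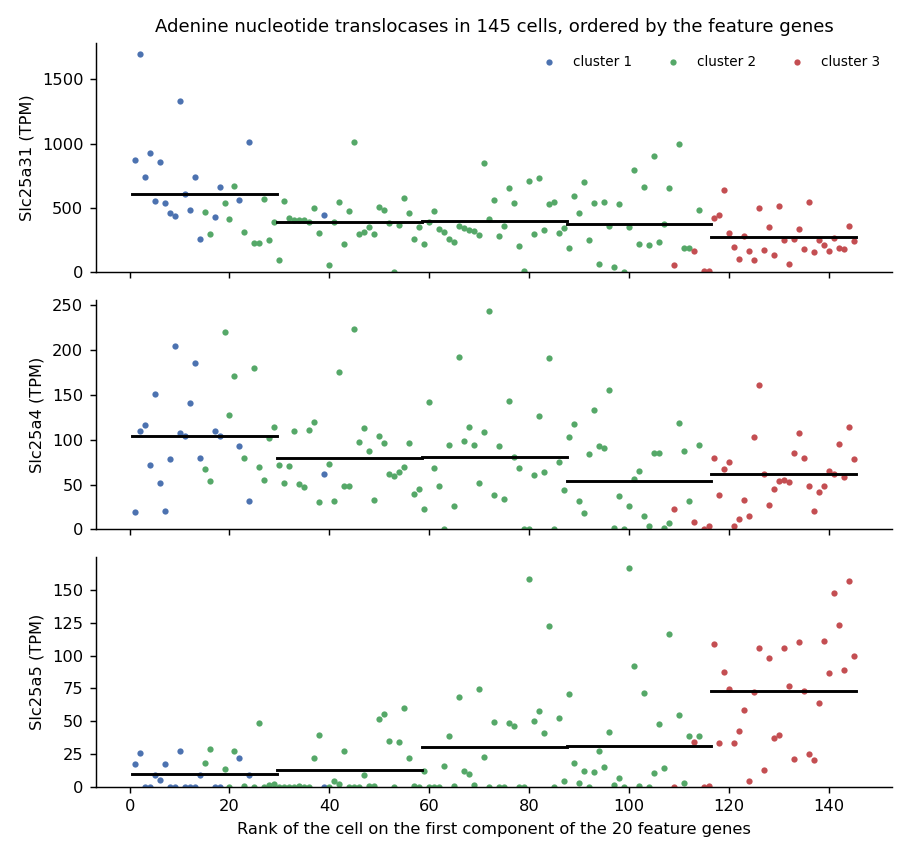
TPM of Slc25a31, Slc25a4 and Slc25a5 in each cell (points coloured by cluster), ordered by the first component of the 20 feature genes; black lines are means of 5 bins of 29 cells. The Slc25a31 means run from 604 TPM in the first bin to 274 TPM in the last, the Slc25a4 means from 104.1 to 61.7 TPM, and the Slc25a5 means from 9.74 to 73.1 TPM; on spike-in scale the lower level of Slc25a4 in cluster 3 than in cluster 1 was lost.

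Of the 29 SLC25 members, the translocases included, 12 were lower and 5 higher in cluster 3 than in cluster 1, which is 41.4% and 17.2% beside 36% and 25.3% of the coding genes, with a median log2 ratio of -0.47, which became 0.30 on spike-in scale where the median coding gene was at 0.45. Among the lower were Slc25a42, a coenzyme A carrier (-1.71), the oxoglutarate carrier Slc25a11 (-1.59), the pyrimidine nucleotide carriers Slc25a33 (-1.43) and Slc25a36 (-1.29), and the folate and flavin carrier Slc25a32 (-1.20). Without globin libraries Slc25a42 came to -3.38, Slc25a11 to -0.91 and Slc25a36 to -0.47, within the limit. Slc25a11 had medians of 69.9, 60.2 and 19.5 TPM in clusters 1, 2 and 3, and its highest cell, at 1126 TPM in cluster 2, held 10.8% of its summed TPM. Higher were Slc25a5, the ornithine carrier Slc25a15 (2.16), the X-linked Slc25a53 (1.88, and 2.55 without globin libraries), the S-adenosylmethionine carrier Slc25a26 (1.24) and Slc25a30 (1.10). The phosphate carrier Slc25a3 stayed within 1.5-fold (380, 348 and 273 TPM; -0.47), as did Slc25a39 (-0.51) and Slc25a17 (-0.40).

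Among the zinc transporters a member near 0 in cluster 1 had the largest log2 ratio between clusters 3 and 1 of all members. Slc30a3 (chr5:31086106-31108237, mm10, minus strand), known for loading zinc into synaptic vesicles, had 8 estimated reads over all 19 cells of cluster 1, where its highest cell was at 0.437 TPM. In cluster 2 its lowest, median and highest cells were at 0, 0 and 176 TPM, and 26 of 93 cells reached 1 TPM (25 of 86 with near copies averaged). In cluster 3 these cells were at 0.970, 50.4 and 157 TPM, and 32 of 33 reached 1 TPM. Means were 0.0476, 12.8 and 57.5 TPM, a log2 ratio of 5.80 between clusters 3 and 1. At the limit of 1 TPM Slc30a3 was thus found in nearly all cells of cluster 3, in 28% of the libraries of cluster 2 and in no cell of cluster 1, while lower levels were present there.

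The mitochondrial Slc30a9 remained the leading SLC30 gene beside it. It had means of 230, 237 and 169 TPM, and held 78.8%, 74.5% and 61.9% of the summed TPM of the 6 SLC30 members in clusters 1, 2 and 3, while Slc30a3 held 0.0163%, 4.02% and 21.1%. The exporter Slc30a4 was lower in cluster 3 than in cluster 1 (-0.61), but not without globin libraries (-0.30). Slc30a9 was the highest SLC30 member in 22 of 33 cells of cluster 3 and Slc30a3 in 7. Summed SLC30 levels were alike, with medians of 303, 297 and 276 TPM. The 8 SLC39 importer members summed to medians of 289, 213 and 116.4 TPM, with wide ranges over cells (63.7 to 396, 14.1 to 826 and 31.9 to 686 TPM). Of these importers Slc39a6 (-1.46), Slc39a13 (-1.41) and Slc39a7 (-0.92) were lower in cluster 3 than in cluster 1, Slc39a11 (1.16) was higher, and 4 stayed within 1.5-fold. Slc39a7 shares 80.7% of its exon length with an overlapping gene model on the same strand, so its level is uncertain. Other metal carriers included the copper importer Slc31a1, which was lower (34.8, 10.7 and 7.62 TPM; -2.06), and Slc31a2, which was higher (4.50, 10.3 and 12.7 TPM; 1.31).

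Amino acid carriers parted in both directions. Of 16 members, 6 were higher and 6 lower in cluster 3 than in cluster 1, each 37.5%, beside 25.3% and 36% of the coding genes. Slc6a9 (chr4:117834506-117875198, mm10, plus strand) encodes GLYT1, the glycine transporter that oocytes and early embryos use to control their volume. Its lowest, median and highest cells were at 0, 0 and 1.15 TPM in cluster 1, at 0, 4.09 and 143.6 TPM in cluster 2 and at 0, 30.7 and 159 TPM in cluster 3, and 2 of 19, 51 of 93 and 32 of 33 cells reached 1 TPM. Its log2 ratio between clusters 3 and 1 was 4.97. Of its exon length 30.2% overlaps Ccdc24 on the opposite strand, a gene with means of 3.22, 7.24 and 23.6 TPM that moved in the same direction, and reads of the shared part cannot be told apart without strand.

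Also among the higher members were Slc6a20a, Slc7a2, Slc38a1 and Slc7a11. Slc6a20a, a proline transporter gene, had 7 estimated reads in cluster 1 and means of 7.04 and 10.8 TPM in clusters 2 and 3 (3.54). The cationic amino acid transporter Slc7a2 had medians of 0.0404, 0.847 and 15.5 TPM (4.01), the glutamine transporter Slc38a1 of 1.31, 11.1 and 39.2 TPM (2.92), and the cystine-glutamate exchanger Slc7a11 of 0.0652, 1.56 and 7.5 TPM (2.37). In Slc38a1 the highest cell, at 458 TPM in cluster 3, held 10.9% of its TPM. Of 7 genes listed for osmolyte and volume control in oocytes, 4 were members; Slc6a9 and Slc6a20a were higher in cluster 3 than in cluster 1, the amino acid carrier Slc36a4 was lower (-1.14), and the carnitine carrier Slc22a5 stayed within 1.5-fold (-0.20). Without globin libraries Slc22a5 was at 3.03 TPM in cluster 1 and 12.4 TPM in cluster 3, a log2 ratio of 1.73.

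The reverse held for the surface heavy chain Slc3a2, which pairs with light chains of the SLC7 family. Its lowest, median and highest cells were at 0, 77.1 and 231 TPM in cluster 1, at 0, 2.65 and 378 TPM in cluster 2 and at 0, 4.32 and 98.3 TPM in cluster 3 (log2 ratio -2.28 between clusters 3 and 1). Cluster 1 cells were mostly high and the other clusters mostly low, with overlap. The light chain Slc7a6 followed it (medians 33.2, 0.470 and 2.71 TPM; -1.94, and -2.76 without globin libraries), whereas the light chain Slc7a5 had means of 10.7, 9.04 and 19.5 TPM (0.80, and 1.43 without globin libraries). Slc3a2 and at least 1 of Slc7a5, Slc7a6 and Slc7a11 were both at 1 TPM in 17 of 19, 44 of 93 and 21 of 33 cells. Among cells with any of these light chains, 94.4%, 55% and 65.6% also had Slc3a2, beside 89.5%, 53.8% and 63.6% of all cells. Slc7a1, an arginine and lysine transporter gene, had means of 23.9, 11.3 and 5.53 TPM (-1.93), but in cluster 1 its mean was 56.6 TPM in the 7 libraries with globin and 4.89 TPM in the 12 without, and leaving the globin libraries out of all clusters turned its log2 ratio to 0.22. The part of globin-bearing material in that value was not tested.

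Ion carriers included several genes that were near 0 in cluster 1. Of 18 members, 9 were higher and 3 lower in cluster 3 than in cluster 1, which is 50% and 16.7% beside 25.3% and 36% of the coding genes, with a median log2 ratio of 0.50 (1.30 on spike-in scale). The potassium-dependent sodium-calcium exchangers Slc24a2 and Slc24a3 had means of 0.0514, 20.3 and 23 TPM (4.51) and of 0.140, 5.31 and 10.4 TPM (3.32). Slc24a2 reached 1 TPM in 0 of 19, 25 of 93 and 23 of 33 cells, and 1 cell of cluster 2 at 461 TPM held 17.4% of its TPM. The bicarbonate transporter Slc4a8 had means of 1.37, 7.38 and 26 TPM (3.51). In cluster 1 it reached 1 TPM in 2 of 19 cells, and the cell at 19.8 TPM carried most of that mean. Slc20a1, which imports phosphate with sodium, peaked in cluster 2: lowest, median and highest cells were at 0, 43.9 and 249 TPM, at 0, 74.2 and 313 TPM and at 0, 9.33 and 97.2 TPM, with log2 ratios of 0.70 and then -2.15.

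The rule had set aside Slc2a1, Slc2a3 and Slc16a1, and the remaining sugar carriers were divided. The glucose cotransporter Slc5a2 had 0 reads in cluster 1, and reached 1 TPM in 8 of 93 cells of cluster 2 and 23 of 33 cells of cluster 3, where its median was 12.8 TPM. In reads scaled per 1000000 its level in cluster 3 was at least 1027-fold higher than the floor of 3 reads over cluster 1. Its means were 0, 2.39 and 17.4 TPM, so it passed the limit of 5 TPM through cluster 3. That fold is therefore a description only. Exons of an opposite-strand gene cover 20.6% of its length, and its mean of 5.48 TPM falls below the limit without its highest cell. Slc50a1, the SWEET sugar transporter gene, had means of 4.76, 8.45 and 22.3 TPM (2.02). In cluster 1 it reached 1 TPM in 3 of 19 cells, with a median of 2.51 TPM in those. Most of the cluster 1 mean, and so the size of that ratio, therefore rests on 1 cell. Slc5a10, a sodium-coupled sugar transporter gene, went the other way with means of 12.7, 5.95 and 0.511 TPM (-3.19).

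The lowest ratio between clusters 3 and 1 belonged to Slc6a16 (chr7:45241085-45273367, mm10, plus strand). Its lowest, median and highest cells were at 0, 36.8 and 182 TPM in cluster 1, at 0, 0.821 and 269 TPM in cluster 2 and at 0, 0 and 26.2 TPM in cluster 3, a log2 ratio of -3.60. It reached 1 TPM in 15 of 19, 46 of 93 and 8 of 33 cells, and 12 cells of cluster 1 stood above every cell of cluster 3. Without globin libraries the ratio was -3.12. Slc29a1 followed with -3.23 (-3.91 without globin libraries), but its level rests on 13 cells, with a median of 0 in each cluster. The folate transporter Slc46a1 (means 18, 4.76 and 3.05 TPM; -2.23), the GDP-fucose carrier Slc35c1 (-2.01, and -1.16 without globin libraries) and the neutral amino acid transporter Slc38a4 (-1.97, and -1.29 without globin libraries) completed the 10 lowest with Slc5a10, Slc3a2, Slc31a1, Slc7a6 and Slc7a1.

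**Figure D4:**
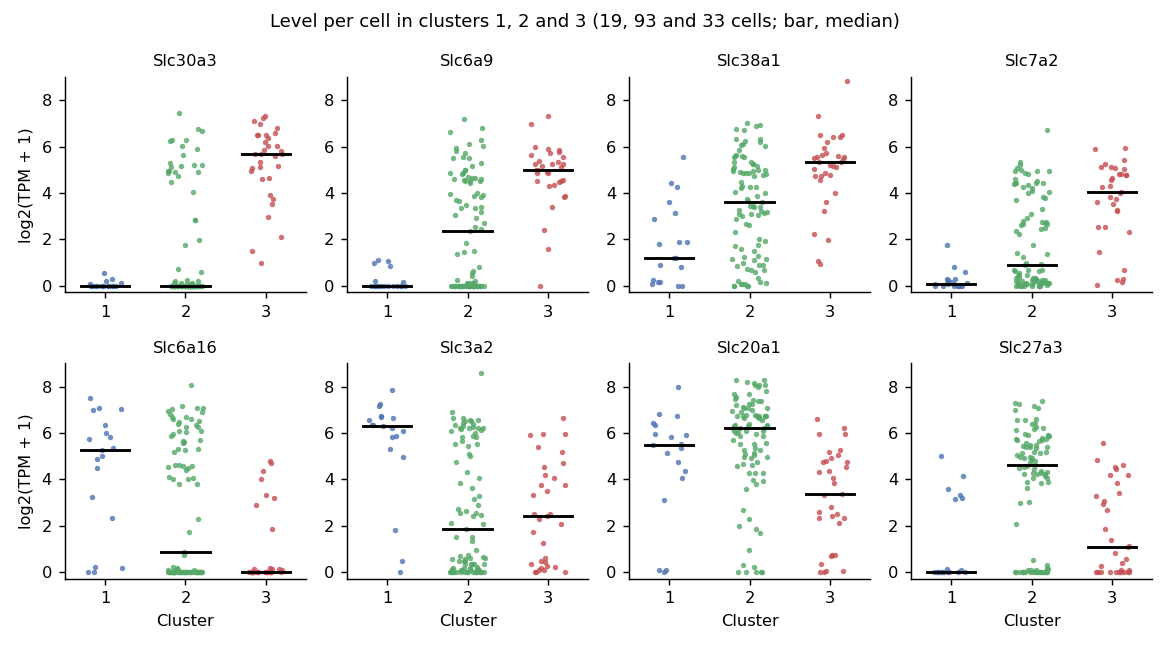
Level as log2(TPM + 1) in each cell (points) of clusters 1, 2 and 3 for 8 members, with the median as a bar. Slc30a3, Slc6a9, Slc38a1 and Slc7a2 have their highest median in cluster 3, Slc6a16 and Slc3a2 in cluster 1, and Slc20a1 and Slc27a3 in cluster 2.

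A peak or a dip in cluster 2 set another group apart. Besides Slc20a1, the genes with both steps past 1.5-fold and the highest mean in cluster 2 were Slc19a1, Slc20a2, Slc27a3, Slc35b1, Slc35f2, Slc35f6, Slc37a3, Slc4a2 and Slc5a6. Without globin libraries 6 of these 10 kept both steps: Slc4a2 came to -0.13 and -0.03, the later step of Slc35f2 to -0.29 and of Slc20a2 to -0.58, and the earlier step of Slc5a6 to 0.56. With near copies averaged Slc35b1 (0.58) and Slc35f2 (-0.57) each missed the limit in 1 step. Slc27a3, a fatty acid transport protein gene, had medians of 0, 23.8 and 1.12 TPM and reached 1 TPM in 6 of 19, 68 of 93 and 17 of 33 cells, with log2 ratios of 2.74 and -2.17. Its related gene Slc27a1 had means of 45.1, 53.1 and 15.8 TPM. The opposite shape was that of Slc25a12, Slc38a9, Slc44a2, Slc44a3 and Slc48a1. For Slc48a1 both steps turned without globin libraries, from -1.15 to 0.42 and from 0.65 to -0.36. Slc44a2, a choline transporter-like gene, had means of 8.86, 3.94 and 23.8 TPM, with log2 ratios of -0.997 and 2.33. It reached 1 TPM in 5 of 19, 15 of 93 and 22 of 33 cells. The 5 cells of cluster 1 had a median of 12.7 TPM, so its earlier step rests on few cells.

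The mean of a member can move through the share of detecting cells or through their level. All 35 members higher in cluster 3 than in cluster 1 reached 1 TPM in a larger share of cluster 3 cells; the median share of cells was 31.6% in cluster 1, 48.4% in cluster 2 and 78.8% in cluster 3. For the 26 with at least 3 detecting cells in both clusters, the median level of the detecting cells had a median log2 ratio of 0.26, and 8 were below 0, beside 17.1% of the higher coding genes. Of the 41 lower members, 32 reached 1 TPM in a smaller share of cells, and the detecting cells had a lower median in 41 of 41, with a median log2 ratio of -1.54. Among the coding genes, 88.2% of those higher gained cells, 70.7% of those lower lost cells and 98.9% of those lower had a lower median in the detecting cells, and the median log2 ratios of the detecting cells were 0.78 and -1.25. In Slc30a3 no cell of cluster 1 reached 1 TPM, so the level of its detecting cells cannot be compared with that cluster. Its detecting cells were 28% of cluster 2 and 97% of cluster 3, with medians of 33.8 and 50.7 TPM. For Slc6a9 both share and level were higher from cluster to cluster. Its detecting cells numbered 2 of 19, 51 of 93 and 32 of 33, with medians of 1.13, 22.1 and 32.4 TPM. In Slc3a2 the detecting cells went from 79.5 to 46.6 and 12.6 TPM. These values come from the comparison that selected the genes and are a description.

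By class, beside the 25.3% of coding genes higher and 36% lower in cluster 3 than in cluster 1, medians ranged from -0.47 for the SLC25 carriers to 0.80 for the 6 sugar and monocarboxylate carriers. Endoplasmic reticulum and Golgi carriers (19 members) had 6 higher, 7 lower and a median of -0.46, which came to 0.59 on spike-in scale. Slc35a1, the CMP-sialic acid carrier, was the highest of them (means 1.15, 7.68 and 8.64 TPM; 2.16) and the UDP-galactose carrier Slc35a2 among the lowest (66.2, 47.2 and 22.2 TPM; -1.53). Metal carriers (19) had 4 higher and 5 lower, with a median of -0.18, and the carriers of nucleosides, vitamins, choline, fatty acids and organic ions (19) had 2 higher and 7 lower, with a median of -0.09. Of 31 listed transport genes outside the Slc symbols, 23 had a mean of at least 5 TPM, with 2 higher, 9 lower and a median of -0.09.

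**Figure D5:**
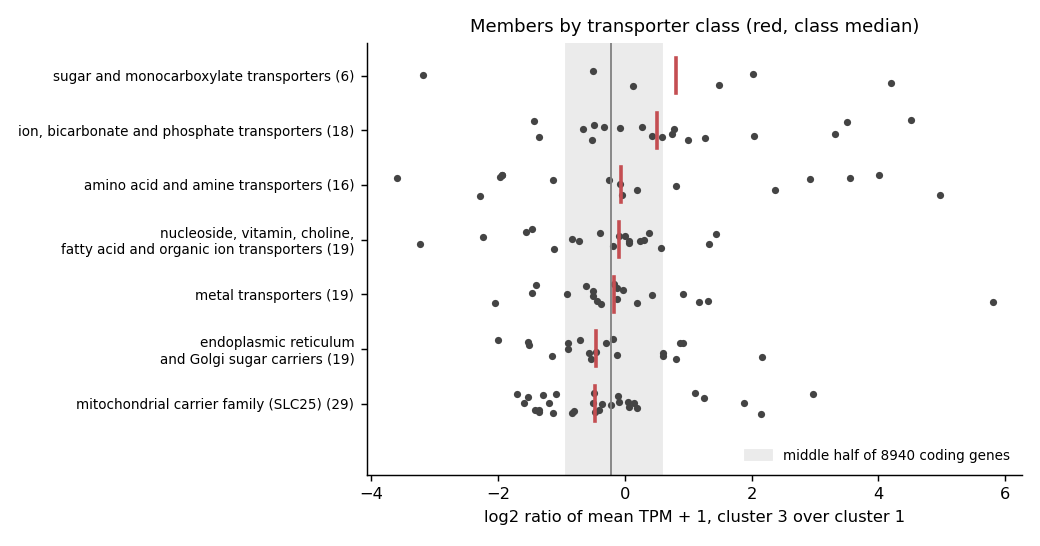
Log2 ratio of mean TPM + 1 between clusters 3 and 1 for the members (points) in 7 transporter classes, with the class median in red, the number of members in brackets, and the quartiles of 8940 coding genes (-0.92 to 0.59) in grey around their median of -0.21. Every class spreads to both sides of 0, and with spike-in scaling the medians of the SLC25 and of the endoplasmic reticulum and Golgi carriers were above 0.

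Some members rest on few cells. In 24 members a single cell held over 10% of the summed TPM, led by the lysosomal peptide transporter Slc15a4 (24.9%; 862 TPM in a cell of cluster 2), Slc39a14 (21.7%), the anion exchanger Slc4a2 (20.0%), Slc24a2 (17.4%) and Slc10a7 (17.2%). Without the highest cell, Slc5a2, Slc44a3 and Slc38a4 fall below 5 TPM. Just inside the limit lay Slc38a4 (5.04 TPM), Slc44a3 (5.32 TPM) and Slc5a2 (5.48 TPM), and just outside Slc45a3 (4.74 TPM), Slc36a1 (4.69 TPM) and Slc25a16 (4.62 TPM). The members lie on every autosome and 7 are X-linked; 6 share over 20% of their exon length with another gene.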

How the data were processed

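Single germ cells gave Smart-seq2 libraries with ERCC spike-ins added. The authors quantified them with Salmon (named with FastQC in the submitters' processing notes) against mm10, and deposited, by gene symbol, TPM and an estimated count of reads. TPM sum to the same total in every cell, and the counts are not normalized. The annotation release is not given in the sources used here.

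The rule gave 126 members over 145 cells, matched by symbol to GENCODE M21 for position and class of gene; 24296 unmatched symbols (11.5% of TPM on average) were not among the 8940 coding genes used as background. Members, lists and classes were chosen with earlier results of these data known. Clustering used the published feature genes in Seurat (version 5.3.0, under R 4.3.3), with 20 feature genes, 10 components, 20 neighbours and resolution 0.2. The study's filters on total count, mitochondrial share and spike-in share were not applied. The clusters were rebuilt and differ in size from the study's, and the cause was not tested. Log2 ratios used a pseudocount of 1 TPM, and exact (Clopper-Pearson) 95% intervals and floors cover counting error only, since reads are PCR copies without molecular identifiers and cells are no replicates. Software was Python 3.11.15 (pandas 2.3.3, NumPy 2.4.6, SciPy 1.17.1, matplotlib 3.10.9). No file is identical to another, but 7 pairs of libraries nearly copy each other (r of at least 0.95), which leaves 138 distinct cells if each pair is 1 cell; pairs averaged are an alternative added after seeing the data. Only the log2 ratio between clusters 3 and 1 was tried on simulated counts, with the clusters given. The sign was right for 92.5% of the 67 genes simulated with a log2 change of 1. The 8740 unchanged genes had a median absolute error of 0.315, beside the limit of 0.585 in log2. Clustering, globin libraries, near copies and spike-in scaling were not simulated. Alternatives were other scalings, pseudocounts, clusterings and sets of cells.

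Genes named are the 10 highest by mean, the 10 largest and 10 smallest ratios between clusters 3 and 1, the 3 largest and smallest of each step, those resting most on 1 cell or found in the fewest cells, those at the limit, class leaders and listed genes that differed. Other members named with values, and the genes of the closing part, were chosen after their values were seen. Results for some listed genes are not reported here.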

Additional observations from a re-analysis of the deposited data

Results flagged for a closer look

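The library without Ddx4, which is outside every comparison above, held reads of solute carrier genes: 52 members had over 3 estimated reads, above the limit that a count of 0 allows. This is 41.3% of the members, beside 39.1% of the 8940 coding genes used as background. It was shallow, with 1408459 reads assigned to genes, and the members summed to 2667 TPM. Slc25a31, the highest member of the other cells, was listed at 0 there, and the highest members were Slc25a12 at 392 TPM, Slc38a6 at 246 TPM, Slc11a2 at 206 TPM and Slc38a4 at 193 TPM.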

How the results depend on the processing

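No paired analysis was possible because the labels give 1 group of cells with no pairs. Per spike-in TPM, members higher and lower numbered 56 and 26 between clusters 3 and 1 and 60 and 11 between clusters 3 and 2 (coding genes 44.9% and 16.7%, and 51.1% and 6.35%); the median was 0.41 over all members, 0.30 for SLC25, 0.59 for endoplasmic reticulum and Golgi, 1.30 for ion and 1.47 for sugar carriers; Slc25a31 came to 0.29 between clusters 3 and 2, and Slc25a4 to 0.10 between clusters 3 and 1. With means of log2(TPM + 1), 36 were lower in cluster 2 than 1 (coding genes 30.6%), and 39 higher and 22 lower in cluster 3 than 2 (28% and 17.1%). Without globin libraries Slc7a1 came to 0.22. With all 360 genes and no limit, higher and lower numbered 71 and 62, 59 and 81, and 71 and 79 between clusters 2 and 1, 3 and 2, and 3 and 1 (coding genes above 0: 18.7% and 18.4%, 13.8% and 22.1%, and 21.3% and 28.4%), and the sugar median was 0. By equal parts of the order, 24 members were higher in the second part than in the first (coding genes 15%). The ion median was 0.80 in CPM, 0.83 in mean logs, 0.66 with Ward clusters, 0.59 without globin libraries and 0.43 to 0.67 leaving out single cells; the sugar median was 0.38 with Ward clusters, 0.56 by equal parts and 0.51 without globin libraries. A median instead of a mean of 5 TPM left 59 members. In CPM, Slc25a31 led in 99.3%, Slc25a4 in 0.69% and Slc25a5 in 0% of cells, and members held 0.619%, 0.605% and 0.553% of reads by cluster. The median share of cells per member was 73.7%, 69.9% and 89.4% with any read, and 54.3% and 69.7% in clusters 2 and 3 at 1 TPM. The cause was not tested. Of 48 ratios of single genes, those that moved by less than 1.5-fold and kept their side of the limit numbered 48 with near copies averaged, 46 with Ward clusters, 39 without globin libraries, 37 in CPM, 34 with a pseudocount of 0.1, 26 with clusters from variable genes, 26 by equal parts of the order, 24 in mean logs and 16 per spike-in TPM. With near copies averaged, higher and lower numbered 35 and 23 between clusters 2 and 1 (coding genes 22.6% and 19.2%) and 21 and 43 between clusters 3 and 2 (13.7% and 29%). The alternatives for the translocase leading each cell, for the members' share, for near copies and for drawn reads were added after seeing the data.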

Other observations

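Below the limit of 5 TPM, 234 solute carrier genes were measured, and 26 of them had a mean of at least 5 TPM in 1 of the clusters. In clusters 1, 2 and 3 the sodium-proton exchanger Slc9a4 averaged 0.0017, 2.12 and 6.89 TPM, and it reached 1 TPM in 0 of 19, 10 of 93 and 15 of 33 cells. Slc45a3 had means of 0.92, 3.27 and 11.1 TPM, and Slc35f3 of 0.19, 0.21 and 5.82 TPM, with 20 of 33 cells of cluster 3 at 1 TPM. Slc6a20b, the neighbour in name of Slc6a20a, had means of 0.67, 3.83 and 8.24 TPM. Higher in cluster 1 were the iron exporter Slc40a1 (9.99, 1.40 and 0.02 TPM; 4 of 19, 5 of 93 and 0 of 33 cells at 1 TPM) and the light chain Slc7a7, which reached 1 TPM in 4 cells, all in cluster 1. For Slc40a1 a single cell held 45.9% of the TPM and for Slc7a7 43.4%. These genes were chosen after their values were seen.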
